A study of Homo sapiens with 43 samples.

Results

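The RNA count table of this study held 58347 gene entries, of which 58084 could be matched to GENCODE release 29. The rows described here were the 1554 antisense long noncoding RNAs (lncRNAs) among them: entries of the GENCODE type antisense that reached at least 10 counts in 2 or more RNA-seq libraries. The choice used RNA abundance only, and 3 names were to be left out; KCNQ1OT1 was the 1 of them that carried this type. Another 3897 antisense rows stayed under the minimum. A clone name rather than a gene symbol was carried by 1091 rows.

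All samples came from HEL, an established human erythroleukemia cell line. Stable transfection had given it doxycycline-inducible U2AF1, either wild type (WT) or with the S34F or the Q157R substitution. RNA-seq after ribosomal RNA depletion covered 6 groups: each line uninduced (2 WT libraries, 1 S34F, 1 Q157R) and each line after 1 µg/ml doxycycline for 48 hours (2 libraries each). Binding to RNA was measured in induced cells only, by eCLIP in the WT line (U2AF1, pulled down through a FLAG tag, and U2AF2, each with 2 biological replicates) and by freCLIP of U2AF1 in all 3 lines. In freCLIP the crosslinked complexes are cut out by size, here as a light (37 to 65 kD) and a heavy (65 to 110 kD) band. There were 3 light libraries for WT, 3 for S34F and 2 for Q157R, and 4, 3 and 2 heavy ones. The transfected lines were not described as clones or pools in the sources used here, and each line stands for its genotype. All groups shared the HEL background.

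Antisense lncRNAs are transcribed from the strand opposite another gene, often from that gene's promoter or from within its body. Some regulate the gene they overlap, some act elsewhere, and most have no known function. U2AF2 binds the pyrimidine tract of a 3′ splice site and U2AF1 the AG dinucleotide that ends the intron, so both proteins are expected on unspliced transcripts of the strand that is spliced. Because sense and antisense RNA come from the same DNA, a count is credited to the right gene only if the strand of the read is kept and read correctly.

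RNA-seq libraries held 22392303 to 40370092 gene counts, eCLIP libraries 306711 to 1148212, and freCLIP libraries 38415 to 730996. Of 12 erythroid and megakaryocytic marker genes, 10 averaged at least 10 CPM (counts scaled to a common library size). HBA1 (0.30 to 5.96 CPM) and ALAS2 (3.04 to 20.7 CPM) did not. The summed level of the 12 was 3243 to 3918 CPM in induced WT and 2279 to 2501 CPM in induced S34F libraries. Induced Q157R lay between them at 2834 to 2898 CPM. None of 6 lymphoid markers averaged 10 CPM, with MS4A1 at 0 in every library and CD2 highest at 5.00 to 11.9 CPM. Of 7 stromal and epithelial markers, KRT8 and KRT18 did. PDGFRB stood at 4.88 to 15.2 CPM and COL1A1 at 0.22 to 1.18 CPM, while COL1A2, EPCAM and CDH1 stayed under 0.1 CPM.

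Most rows lay over another gene. An opposite-strand gene overlapped 1385 of the 1554, and the overlapping gene with the largest overlap, protein-coding ones first, is called the opposite gene here. It was found in the tables for 1379 rows, and 203 of them shared it with another row, so the pairs are not all independent. The antisense gene lay inside the opposite gene in 599 cases, started within it in 385 (head-to-head), ended within it in 309 (tail-to-tail) and spanned it in 92. A further 136 had an opposite-strand gene within 5 kb without overlap, and 33 had none. Exons of the rows could lie over opposite-strand splice sites: exons of 524 rows wholly covered at least 1 window of 20 intron and 3 exon bases at an opposite-strand 3′ splice site, 1092 windows in all. AG ended the intron in 98.9% of these. The median window was 76.5% pyrimidine from 20 to 4 bases before the exon, and so 23.5% when the same bases are read on the antisense strand.

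The windows below show why the strand matters. They belong to opposite-strand genes and are covered by exons of antisense rows described below. These are rows with high CLIP counts, U47924.2 and ABALON, which changed in freCLIP, and TTN-AS1, a row high in RNA and low in CLIP. Each is written 5′ to 3′ on the strand of the opposite gene, as the reverse complement of the covering antisense transcript in GENCODE 29 (GRCh38), with the AG of the 3′ splice site in capitals.
TAL1 opposite AL135960.1, chr1:47225887-47225909, minus strand: gtctgtctgtctgcccacAGgat
TAL1 opposite AL135960.1, chr1:47228520-47228542, minus strand: tctgtcttgttctggcacAGgtg
ZRANB2 opposite ZRANB2-AS1, chr1:71066932-71066954, minus strand: ttgtttctcaatcaatgaAGatc
H2AFY opposite C5orf66, chr5:135343432-135343454, minus strand: tttcatccccgcaccactAGctg
AP1G2 opposite AL135999.1, chr14:23561429-23561451, minus strand: ccttctgtcccttctgccAGgcc
MTMR3 opposite AC003681.1, chr22:30023437-30023459, plus strand: tctttctcccctccttgcAGgga
C12orf57 opposite U47924.2, chr12:6943522-6943544, plus strand: gcctttactgccgaatccAGgtc
C12orf57 opposite U47924.2, chr12:6944087-6944109, plus strand: tttacctccgctgaacctAGagc
C12orf57 opposite U47924.2, chr12:6944360-6944382, plus strand: tcttattgggttacctacAGcct
BCL2L1 opposite ABALON, chr20:31722328-31722350, minus strand: agctctttctctcccttcAGaat
BCL2L1 opposite ABALON, chr20:31722346-31722368, minus strand: attatttttttttcctgaAGctc
TTN opposite TTN-AS1, chr2:178582590-178582612, minus strand: cttcttccttattccttcAGata
ADGRL1 opposite AC022098.1, chr19:14155525-14155547, minus strand: ccctgtcgccccactcccAGatc
The TTN and MTMR3 windows were 94.1% pyrimidine over the 17 bases before the last 3 of the intron, and the ZRANB2 window was 64.7%.

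The antisense rows were low in RNA. Their mean level over the 10 libraries had a median of 0.826 CPM, with quartiles of 0.399 and 2.26 CPM. Only 94 rows averaged 10 CPM or more, and 861 averaged under 1 CPM. The highest was GABPB1-AS1, opposite the gene for a transcription factor subunit, at 209 CPM. It was followed by FGD5-AS1 (83.5 CPM), HCG18 (79.4), PROSER2-AS1 (76.4), AL034397.3 (62.3), TMEM147-AS1 (59.0), THAP9-AS1 (58.4), SNHG12 (53.1), LINC01088 (53.1) and SNHG7 (52.4). SNHG7 and SNHG12 are small nucleolar RNA host genes. These 10 rows held 16.9% of all antisense counts, so the set as a whole was spread over many weak rows. Levels per gene here are not corrected for length.

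Antisense rows took a larger share of the RNA in induced S34F cells than in any other group. They held 0.632% and 0.610% of gene counts in the induced S34F libraries, against 0.438% and 0.474% in induced WT and 0.439% and 0.484% in induced Q157R. Uninduced cells were lower still, at 0.383% and 0.422% in WT, 0.415% in S34F and 0.401% in Q157R. The S34F range did not overlap that of any other group. The number of rows at 1 CPM or more moved the same way: 829 and 763 in induced S34F, 662 and 656 in induced WT, and 613 to 674 in the other libraries. With 2 libraries per group, an exact permutation test of such a share cannot reach the 0.05 level, and none was run.

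**Figure D1:**
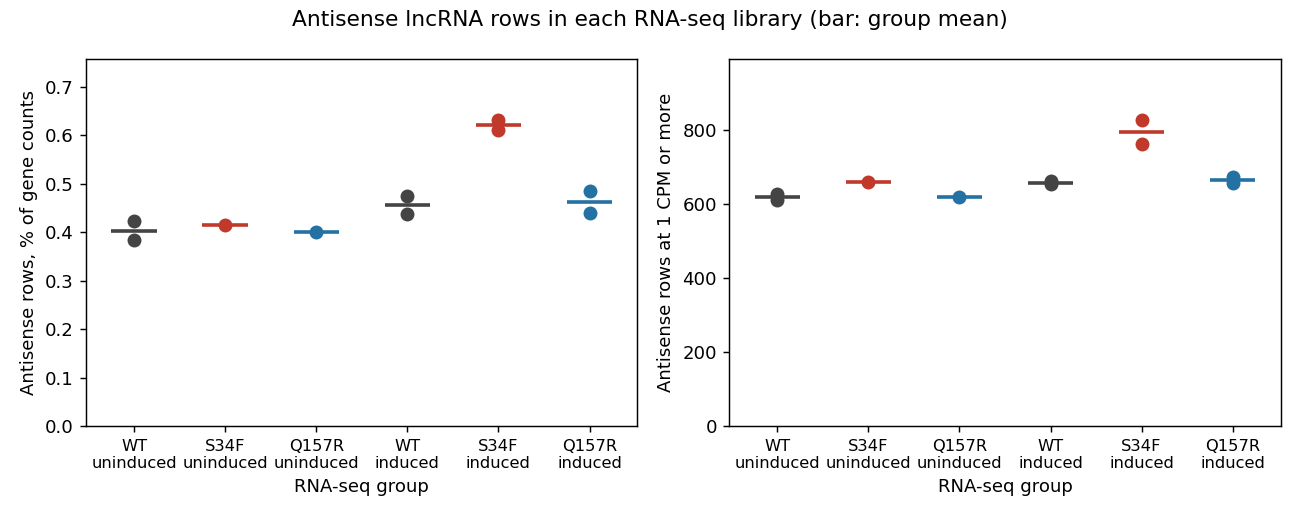
Each point is 1 RNA-seq library, by line and induction; the left panel gives the percent of gene counts in the 1554 antisense rows and the right panel the number of these rows at 1 CPM or more, with bars at group means. The induced S34F libraries stand at 0.610% and 0.632%, above the other 8.

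The rise was not particular to antisense rows. In the S34F against WT comparison of induced cells the median log2 change was 0.34 over the 1542 antisense rows that passed the filter on low counts, and 0.00 over all 21300 genes tested. Over all tested rows of a type it was 0.44 for long intergenic RNAs, 0.70 for sense intronic RNAs, 0.38 for processed transcripts and -0.16 for protein-coding genes. The share of reads that fell in no annotated gene moved with it: 33.7% and 33.5% in induced S34F, 22.7% in both induced WT libraries, 23.2% and 27.0% in induced Q157R, and 19.0% to 20.6% uninduced. Its part in the antisense result was not tested. Without induction the S34F line was close to WT, with a median difference of 0.05 in log2(CPM + 0.5) over the antisense rows. On that scale induction moved the median by 0.26 in the S34F line, 0.08 in WT and 0.10 in Q157R, where all tested genes moved by 0.04, 0.01 and 0.04.

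In the S34F against WT comparison 18 antisense rows rose and none fell at an adjusted p under 0.05 (edgeR quasi-likelihood test, Benjamini-Hochberg over all genes). Over all genes 0.681% were called higher and 0.991% lower, so the share of antisense rows that rose, 1.17%, was a little over the background and the share that fell was under it. In all 18 rows both induced S34F libraries lay above every one of the other 8 RNA-seq libraries, the uninduced S34F library included. The rows were called on these same S34F and induced WT libraries. Their separation from induced WT therefore follows largely from the call and is no separate support for it. With the replicate number as a block, 214 rows rose and 34 fell, against 9.56% and 12.9% of all genes. That is 13.9% of the antisense rows called higher, above the background share, and all 18 rows were among the block's calls. None of the 18 remained called when any 1 of the 4 libraries was left out, or when only the compared groups were fitted.

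Among rows with a gene symbol, IL21R-AS1 rose most. It lies tail-to-tail with IL21R, the gene of the interleukin-21 receptor, on chromosome 16 from 27447669 to 27453393, minus strand (GRCh38). It stood at 2.64 and 2.76 CPM in induced S34F, 0.25 and 0.04 CPM in induced WT, 0.15 and 0.07 CPM in induced Q157R, and 0.03 to 0.13 CPM uninduced. It was thus near the limit of counting in every group but induced S34F, where the libraries did not overlap the others (log2 change 4.08, SE 0.63, adjusted p = 0.0443 in edgeR). IL21R itself did not pass the test, at 59.8 ± 21.1 CPM in WT and 44.5 ± 21.7 CPM in S34F (SD, n = 2).

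DNAH10OS lies inside DNAH10, a gene of an axonemal dynein heavy chain. It stood at 6.42 and 8.60 CPM in S34F against 0.80 and 1.07 CPM in WT (log2 change 3.02, SE 0.55). TNK2-AS1, inside the gene of the kinase TNK2, stood at 8.59 and 6.63 CPM against 1.72 and 0.88 CPM (log2 change 2.53, SE 0.47). USP3-AS1, tail-to-tail with the deubiquitinase gene USP3, stood at 10.5 and 7.22 CPM against 2.69 and 1.47 CPM (log2 change 2.08, SE 0.37). In these 3 rows the WT and S34F libraries did not overlap, which the rule for naming rows required. The opposite genes did not pass the test, but with the block TNK2 (log2 change 0.80, adjusted p = 0.0035 in edgeR) and DNAH10 (1.33, adjusted p = 0.0152) rose.

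SH3BP5-AS1 and TTN-AS1 were the most abundant of the 18. SH3BP5-AS1 had 39.9 and 33.7 CPM in S34F, 13.5 and 8.13 CPM in WT and 13.7 and 8.61 CPM in Q157R (log2 change 1.76, SE 0.32, adjusted p = 0.0448 in edgeR). SH3BP5, which encodes a regulator of small GTPases, stood at 8.15 ± 0.60 CPM in S34F and 9.29 ± 1.33 CPM in WT (SD, n = 2). TTN-AS1, opposite the gene of the muscle protein titin, had 41.1 and 46.2 CPM in S34F and 22.7 and 20.5 CPM in WT, a 2.02-fold rise. TTN stood at only 6.84 ± 1.03 CPM in S34F and 2.78 ± 0.86 CPM in WT (SD, n = 2), so in these cells the antisense row was the stronger of the pair. TTN did not pass the test (adjusted p = 0.0967 in edgeR) but did with the block (adjusted p = 0.0102).

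Clone-named rows made up 12 of the 18. AC243772.2 stood at 4.57 and 1.97 CPM in S34F against 0.27 and 0.11 CPM in WT. AC013472.3, inside AGBL5, stood at 2.80 and 3.22 CPM against 0.25 and 0.52 CPM. AGBL5, the gene of a tubulin deglutamylase, fell over the same comparison, from 86.4 ± 5.93 to 41.8 ± 3.48 CPM (SD, n = 2; log2 change -1.05, SE 0.16, adjusted p = 0.0443 in edgeR). It was the only opposite gene of the 18 called without the block. With the block MFSD12, SH3D19 and BCAR3 fell too, opposite AC005786.3, AC095055.1 and AL109613.1, which rose. AL513217.1 had 16 counts in each S34F library and 1 and 0 counts in the WT libraries, too few for a fold.

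**Figure D2:**
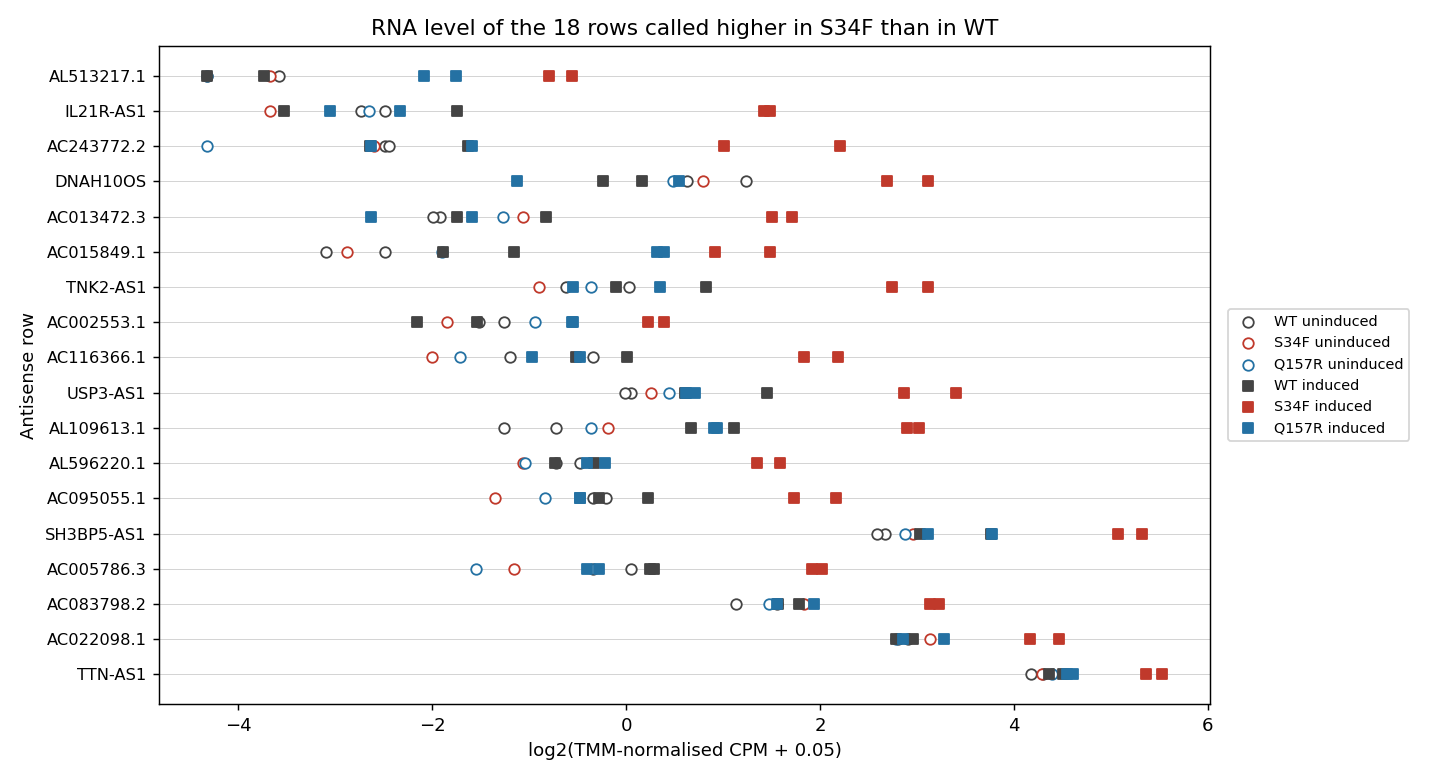
The 18 antisense rows called higher in S34F than in WT, 1 line each, with every RNA-seq library as a point on a log2(CPM + 0.05) axis; open circles are uninduced and filled squares induced. Both filled red squares (S34F) lie to the right of the other 8 libraries in all 18 rows, which were picked by a test on the same induced S34F and WT libraries.

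Across all pairs, antisense rows and their opposite genes showed little relation in how they changed. Among 1177 overlapping pairs with both genes tested, the median log2 change was 0.32 for the antisense row and -0.16 for the opposite gene. The row was up and the opposite gene down in 462 pairs, both were up in 327, both down in 265, and the row was down with its opposite gene up in 123. Spearman's rho across pairs was 0.13, where members of a pair come from the same libraries and some pairs share a gene. Of 159 rows that rose under the block and had a tested opposite gene, that gene rose in 18, fell in 30 and was not called in 111. Of 21 such rows that fell, it fell in 11, rose in 1 and was not called in 9. In that fit 9.56% of all genes were called higher and 12.9% lower. The opposite genes of falling rows thus fell more often than all genes did, over few pairs.

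The position of the row relative to the opposite gene made small differences. The median log2 change in S34F was 0.43 for rows inside the opposite gene, 0.25 for head-to-head rows, 0.31 for tail-to-tail rows and 0.30 for spanning rows. It was 0.36 for rows with a neighbour within 5 kb and 0.51 for the 33 rows with none. Rows with 1 annotated exon had a median of 0.42 and rows with more had 0.32. Among the 18 were 0 of 382 tested head-to-head rows, 8 of 593 inside, 8 of 307 tail-to-tail and 2 of 92 spanning rows. With the block 26 head-to-head rows rose and 11 fell. The block gave 108 and 10 inside rows, 48 and 5 tail-to-tail and 12 and 1 spanning, against 9.56% and 12.9% of all genes.

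Against Q157R, 10 antisense rows were higher in S34F and 1 was lower, with 0.300% of all genes called higher and 0.258% lower. This is a direct test of the difference between the 2 mutants, and 9 of the 10 were also called against WT. The other was GATA2-AS1, head-to-head with the gene of the blood transcription factor GATA2, at 37.8 and 33.1 CPM in S34F, 16.5 and 16.6 CPM in Q157R and 29.6 and 26.9 CPM in WT. The mutant lines lay on either side of WT there, with a log2 difference of 1.10 (SE 0.17, adjusted p = 0.0494 in edgeR). The lower row was HCG2040054, at 0.04 and 0.10 CPM in S34F and 1.04 and 0.81 CPM in Q157R. With the block 172 rows were higher and 31 lower, against 8.49% and 11.5% of all genes. The 2 contrasts share the S34F libraries.

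Neither Q157R nor induction of WT U2AF1 gave a called antisense row in edgeR without the block. Without the low-count filter Q157R gave 1 of 1554 rows and induction 5, where 15 and 130 of all 38670 genes were called. In Q157R against WT the test called 0 of 1542 rows and 0% of all genes. Before adjustment 64 rows and 716 of all 21300 genes had a p under 0.05. DESeq2 called 0 rows and 3 of 38670 genes. The lowest p belonged to EMX2OS, opposite the homeobox gene EMX2, with a log2 difference of -2.22 (SE 0.41, adjusted p = 1.00 in edgeR). The median row differed by -0.02. In induced against uninduced WT the test called 0 rows and 0% of genes. Before adjustment 79 rows and 1363 of all 21300 genes were under 0.05. DESeq2 called 0 rows and 18 of 38670 genes. With the block 1 row rose, AL109613.1 (adjusted p = 0.0405 in edgeR), against 0.254% of genes. It also had the lowest p without the block, at 2.12 and 1.55 CPM induced and 0.56 and 0.37 CPM uninduced (log2 difference 1.99, SE 0.36, adjusted p = 0.693 in edgeR).

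Lists of rows by function showed few calls in S34F against WT. Of 65 well-studied antisense lncRNAs 30 were among the rows; TTN-AS1 rose, and the median log2 change was 0.06, under that of all antisense rows. Of 18 HOX cluster antisense RNAs 7 were present and none was called, with a median log2 change of 0.65. The change was 3.12 for HOXA-AS2 (0.33 CPM, adjusted p = 0.0531 in edgeR), 0.86 for HOXB-AS3, 0.80 for HOXA11-AS and 0.65 for HOXB-AS1 (6.34 CPM). HOXD-AS2 (-0.38), HAGLR (-0.43) and HOTAIRM1 (-0.13) had negative values. Of 22 rows opposite chromatin regulators 18 had a positive change, with a median of 0.52, where 67.9% of all antisense rows were positive. The 1 call was AC002553.1, inside the corepressor gene NCOR1. These rows are not independent: 3 lie opposite PAXIP1, 3 opposite BRWD1 and 2 opposite KMT2E. IL21R-AS1 was the 1 call among 8 tested rows opposite cytokine and JAK-STAT genes, where the median was -0.20.

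Rows opposite splicing and RNA-processing genes (17 tested, median 0.21), zinc finger genes (45, 0.11), ribosome and translation genes (12, 0.16), cell cycle genes (7, 0.10), blood lineage genes (7, -0.18) and mitochondrial and metabolic genes (11, -0.24) had no call without the block. The lineage set includes SENCR, inside FLI1, at 13.7 CPM with a log2 change of -0.38. The cell cycle set includes MCM3AP-AS1 at 22.9 CPM with 0.10, and TMPO-AS1 at 12.5 CPM with -0.37. None of these 3 rows passed the test. With the block, calls were added among well-studied rows (2 in all, with GAS6-AS1), HOX rows (1, HOXA-AS2), rows opposite chromatin regulators (4 higher, 2 lower), cytokine and JAK-STAT genes (1 higher, 2 lower), splicing genes (2 higher) and zinc finger genes (2 higher). These counts are to be read against the 13.9% of all antisense rows, and the 9.56% of all genes, that were called higher with the block, and the 12.9% of all genes called lower.

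The CLIP tables gave these same rows a very different weight. The 1554 rows held 15.3% to 17.6% of the gene counts in eCLIP and 15.03% to 19.5% in freCLIP, against 0.383% to 0.632% in RNA. Genes with abundant spliced RNA were nearly empty. ACTB, the beta-actin gene, had 926269 counts over the 10 RNA-seq libraries and 2 over the 7 eCLIP libraries. RPLP0 had 420850 and 1, and EEF2 had 1077672 and 18. Over the 100 most abundant nuclear coding genes without an opposite-strand gene, the median was 186149 RNA counts and 21.5 eCLIP counts. These 100 genes held 8.17% of RNA counts and 0.0941% of eCLIP counts.

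The strand of the RNA table could be checked on rows that lie wholly under opposite-strand exons. For 82 antisense rows of this kind with an opposite gene of at least 100 CPM, RNA per kb of exon was 0% to 13.0% of that of the opposite gene, with a median of 0.963%. These 82 include rows under the count minimum, outside the 1554. Of them 70 had at least 10 counts over the 10 RNA-seq libraries, and the row at 0% had none. AC006064.4, under the exons of the glycolytic gene GAPDH, held 3508 RNA counts to 889181 for GAPDH. In eCLIP the order was turned: AC006064.4 held 8543 counts and GAPDH 51. How strand was set in counting is not given in the sources used here. The CLIP tables are filled as reads counted on the strand opposite the annotated gene would fill them, and a count in an antisense row is therefore not read here as binding to the antisense RNA. Values for it are given as CPM in the row.

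CLIP counts in a row followed the RNA of the opposite gene more than the row's own RNA. The rule that chose the rows cut off the low end of their own RNA, while the opposite gene's RNA was not filtered. How far this lowers the coefficients with the row's own RNA was not tested. Across 1379 overlapping pairs, Spearman's rho between U2AF2 eCLIP in the row and RNA of the opposite gene (WT, induced) was 0.54, and with the row's own RNA 0.06. For U2AF1 eCLIP the coefficients were 0.55 and 0.06, for the WT heavy fraction 0.55 and 0.05, and for the WT light fraction 0.52 and 0.03. In the mutant lines, against RNA of the same line, they were 0.51 and 0.04 (S34F light), 0.55 and 0.05 (S34F heavy), 0.44 and 0.00 (Q157R light) and 0.53 and 0.02 (Q157R heavy). For U2AF2 the coefficients differed with layout: 0.71 and 0.10 for tail-to-tail rows, 0.62 and 0.04 for rows inside the opposite gene, 0.47 and 0.23 for spanning rows, and 0.28 and 0.13 for head-to-head rows. They were 0.51 and 0.19 for the 277 pairs without exon overlap. The mirror relation was weaker: rho between CLIP counts in the opposite gene and RNA of the antisense row was 0.29 for U2AF2, and 0.04 against the opposite gene's own RNA. These coefficients describe pairs that share libraries, and some share genes.

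**Figure D3:**
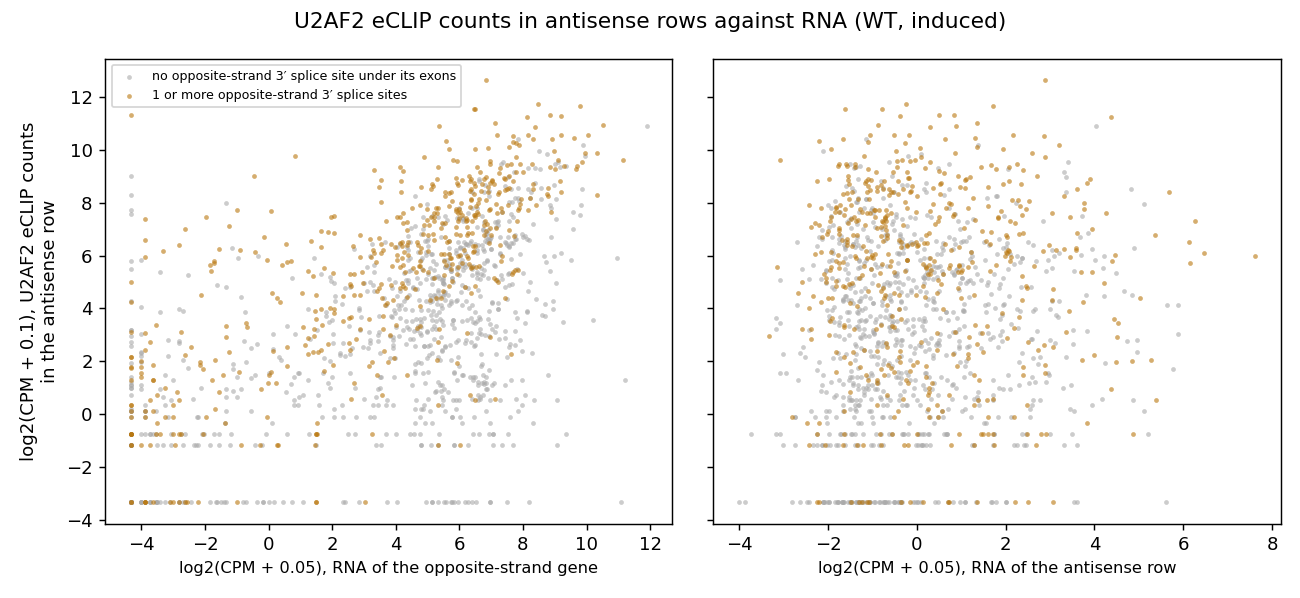
U2AF2 eCLIP level in each of 1379 antisense rows (vertical, log2(CPM + 0.1)) against RNA of the opposite gene (left) and of the row itself (right), both as log2(CPM + 0.05) in induced WT cells; orange points cover at least 1 opposite-strand 3′ splice site. The points rise with the opposite gene's RNA (rho 0.54) and show no trend with the row's own (rho 0.06), whose low end was cut off by the rule that chose the rows.

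The level differed with what the row's exons covered. The 524 rows over at least 1 opposite-strand 3′ splice site had a median of 64.3 CPM in U2AF2 eCLIP and 46.9 CPM in U2AF1 eCLIP, and held 72.2% of the rows' eCLIP counts. The 236 rows that covered only 5′ splice sites had a U2AF2 median of 35.6 CPM, the 348 with other exon overlap 10.0 CPM, the 277 that overlapped a gene but none of its exons 2.24 CPM, and the 169 without an overlapping gene 0.496 CPM. Their own RNA hardly differed, with medians of 0.850, 0.909, 0.688, 0.605 and 0.899 CPM in the same order. Rows over 3′ splice sites had longer exons, with a median of 1724 bases against 778 for rows without exon overlap. Per kb of exon the U2AF2 medians were 40.8, 22.5, 9.01, 2.23 and 0.503 CPM. These classes were drawn after the CLIP counts had been seen and are descriptions.

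**Figure D4:**
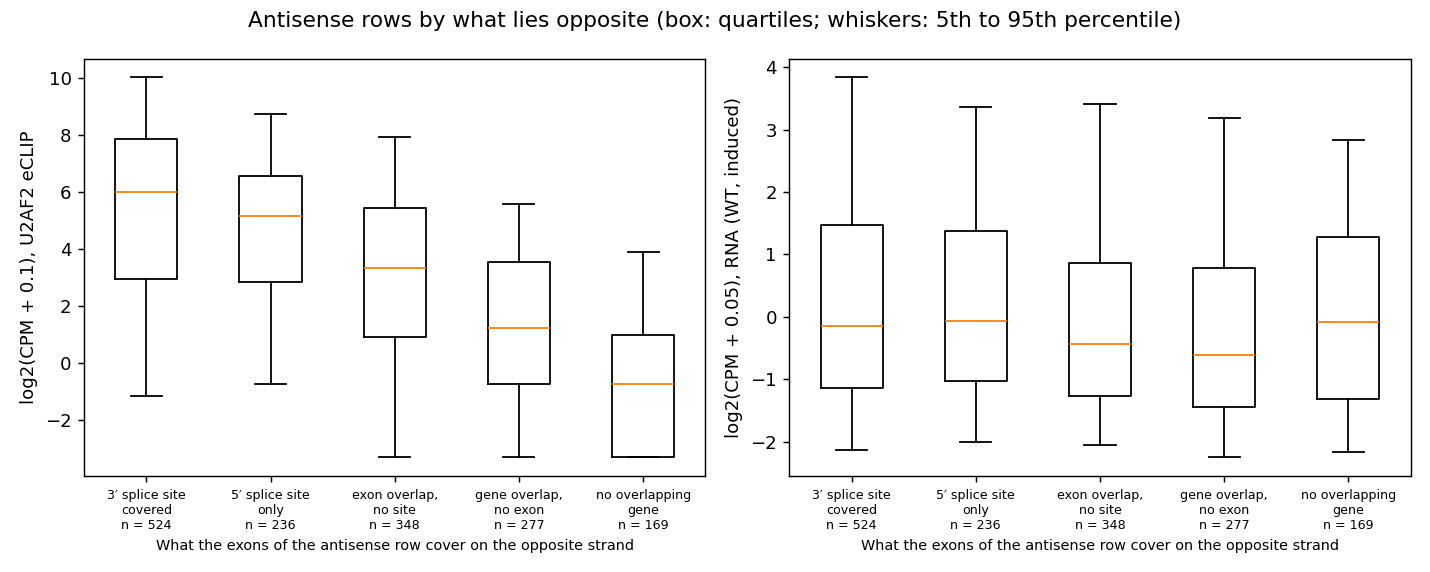
Antisense rows by what their exons cover on the opposite strand; boxes show quartiles and whiskers the 5th to 95th percentile of U2AF2 eCLIP level (left) and of the row's own RNA (right) on log2 axes. Median eCLIP level falls from 64.3 to 0.496 CPM across the 5 classes while median RNA stays between 0.605 and 0.909 CPM.

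Within the rows over 3′ splice sites the medians rose with the opposite gene's RNA. The U2AF2 median was 2.33 CPM for the 109 rows whose opposite gene had at most 1 CPM of RNA and 14.5 CPM for the 86 with 1 to 10 CPM. It was 70.8 CPM for 122 rows with 10 to 50 CPM, 197 CPM for 145 with 50 to 200 CPM and 656 CPM for 56 above 200 CPM. Sorted by the row's own RNA the medians showed no such order: 66.0 CPM for rows at 0.5 CPM or less, 83.6, 47.5 and 72.3 CPM in the middle bands, and 58.2 CPM for the 42 rows above 10 CPM. Whether the row had a 3′ splice site of its own made little difference. With an opposite-strand site covered, the U2AF2 median was 64.7 CPM for 412 rows with an own site and 62.7 CPM for 112 rows without.

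The rows with most CLIP counts lay opposite strongly expressed genes. AL135999.1, head-to-head with the adaptor gene AP1G2 and over 10 of its 3′ splice site windows, had 6297 and 6486 CPM in U2AF2 eCLIP and 4633 and 2947 CPM in U2AF1 eCLIP. Its own RNA was 7.31 ± 3.05 CPM (SD, n = 2, induced WT). AL135960.1, inside TAL1, a transcription factor gene of the erythroid lineage, had 2680 and 2448 CPM in U2AF2 and 3338 and 4752 CPM in U2AF1 eCLIP. RNA was 1.74 ± 1.10 CPM for AL135960.1 and 462 ± 84.4 CPM for TAL1 (SD, n = 2). ZRANB2-AS1 had 3498 and 3209 CPM in U2AF2 eCLIP with 0.80 ± 0.14 CPM of RNA, opposite a splicing factor gene at 355 ± 107 CPM (SD, n = 2). Each of these rows was high in CLIP and under 10 CPM in RNA.

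C5orf66, opposite the macroH2A gene H2AFY, had 3276 and 3058 CPM in U2AF2 eCLIP and 3.23 ± 0.38 CPM of RNA (SD, n = 2). AC003681.1 is annotated as 1 exon of 49287 bases inside the phosphatase gene MTMR3, and covers 16 of its 3′ splice site windows. It had 3103 and 2812 CPM in U2AF2 eCLIP and 0.28 ± 0.08 CPM of RNA (SD, n = 2). AC009133.1 had 2456 and 2608 CPM although its assigned opposite gene, AC009133.6, had no RNA counts in induced WT; the windows it covers also belong to MAZ, PRRT2, PAGR1 and AC120114.4. AC022098.1, opposite the adhesion receptor gene ADGRL1, was the 1 row of this group that also rose in S34F RNA.

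TTN-AS1 is the mirror case. It held 7497 RNA counts and 50 eCLIP counts, while TTN held 982 RNA counts and 24424 eCLIP counts. Its share of the pair's counts was 88.7% ± 2.41 in RNA and 0.263% ± 0.0702 in U2AF2 eCLIP (SD, n = 2). AL034397.3, an abundant row with no overlapping gene, had 58.5 ± 3.24 CPM of RNA and 0.845 ± 0.207 CPM in U2AF2 eCLIP (SD, n = 2).

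Most pairs moved the other way from TTN-AS1. Of 676 overlapping pairs with at least 20 counts in every replicate, the antisense row held a median of 1.81% of the pair's counts in RNA, 47.1% in U2AF1 eCLIP and 51.7% in U2AF2 eCLIP. The U2AF2 share lay above the RNA share in both replicates in 475 pairs, below it in 159, and overlapped it in 42. The median log2 ratio of the shares was 4.01. In the 110 pairs whose exons do not overlap it was 0.07.

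Among the highest ratios were those of AC093110.1 (opposite SPTBN1), AC006064.2 (CHD4), AC126696.2 (SLC7A5), AL354733.3 (HNRNPK) and AC037198.2 (THBS1). AC006064.2 held 0.0341% ± 0.0204 of the pair in RNA and 99.6% ± 0.114 in U2AF2 eCLIP (SD, n = 2), opposite the chromatin remodeller gene CHD4. The lowest were LINC01088, AC034206.1, AL450384.2, AC027097.2, AC010325.2 and HCG23. Each of these 6 held 97.1% or more of the pair's RNA counts and 0 of its U2AF2 eCLIP counts.

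Between U2AF1 and U2AF2 eCLIP, with 2 replicates each, no antisense row passed the test: 0 of 862 tested rows and 0% of 10521 genes were called in edgeR. Before adjustment 88 of these rows and 624 of these genes were under 0.05. DESeq2 called 0 rows and 0 genes. The median difference was -0.30 on the log2 scale, U2AF1 being lower, against -0.08 over all genes. Leaving out the first or the second U2AF1 replicate gave 555 and 244 calls among 897 and 948 tested rows. In the same fits 6523 of 11808 and 1912 of 12768 genes were called, so the change was not limited to antisense rows.

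In the light freCLIP fraction 1 row was higher and 2 were lower in S34F than in WT, among 679 tested, with 0.176% of all genes called higher and 0.132% lower. U47924.2 was higher. It is a single annotated exon on chromosome 12 from 6943508 to 6944604, minus strand, opposite C12orf57. It had 5859, 9246 and 8930 CPM in WT and 35184, 27056 and 16441 CPM in S34F (log2 difference 1.71, SE 0.25, adjusted p = 5.3e-05 in edgeR), and 5885 and 5427 CPM in Q157R. The S34F libraries lay above all others. In the heavy fraction it had 2599 ± 638 CPM in WT (SD, n = 4) and 4860 ± 1649 CPM in S34F (SD, n = 3), which did not pass the test. RNA of C12orf57 was 89.3 ± 33.4 CPM in WT and 76.4 ± 4.20 CPM in S34F (SD, n = 2), with no call.

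AP003392.3 was lower in S34F. It lies opposite HYOU1, the gene of a chaperone of the endoplasmic reticulum. Its exons cover 1 opposite-strand 5′ splice site and no 3′ splice site window. AP003392.3 had 726, 570 and 199 CPM in WT against 161, 37.1 and 65.8 CPM in S34F (log2 difference -2.39, SE 0.51, adjusted p = 0.0137 in edgeR). The heavy fraction differed in the same direction, 661 ± 153 CPM (SD, n = 4) against 168 ± 18.1 CPM (SD, n = 3), with an adjusted p of 0.0592 in edgeR. HYOU1 RNA was 577 ± 27.1 CPM in WT and 308 ± 43.3 CPM in S34F (SD, n = 2; adjusted p = 0.0609 in edgeR).

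ABALON was also lower. This antisense RNA lies inside BCL2L1, the gene of the apoptosis regulator BCL-X, on chromosome 20 from 31721507 to 31723409, plus strand. It had 1354, 3187 and 3069 CPM in WT and 1061, 667 and 1140 CPM in S34F (log2 difference -1.40, SE 0.32, adjusted p = 0.0291 in edgeR). BCL2L1 RNA was 331 ± 58.8 CPM in WT and 129 ± 45.6 CPM in S34F (SD, n = 2; log2 change -1.36, SE 0.26, adjusted p = 0.0503 in edgeR). With the RNA block BCL2L1 (adjusted p = 0.000434 in edgeR) and HYOU1 (adjusted p = 0.00328) fell. RNA of ABALON itself was also lower, at 0.43 ± 0.05 CPM in S34F and 1.18 ± 0.41 CPM in WT (SD, n = 2; log2 change -1.45, adjusted p = 0.0957 in edgeR, 0.0217 with the block). What part either RNA level has in the CLIP values was not tested.

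**Figure D5:**
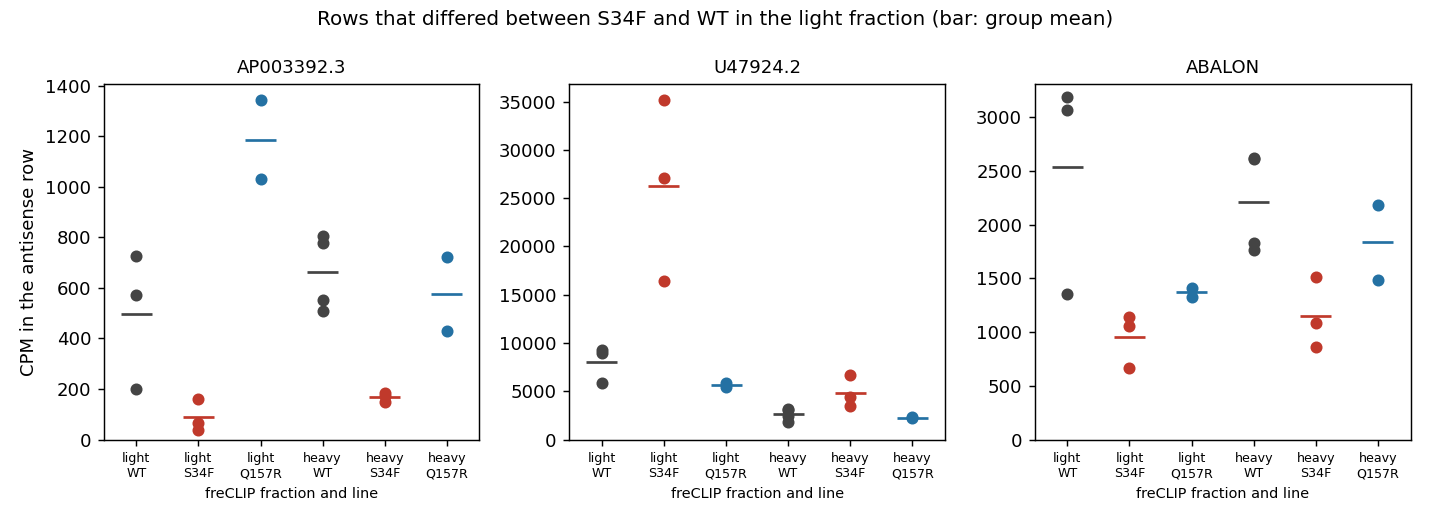
CPM in the 3 antisense rows that differed between S34F and WT in the light freCLIP fraction, 1 point per library and bars at group means, for both fractions and all 3 lines. U47924.2 stands at 16441 to 35184 CPM in S34F light libraries and at most 9246 CPM in WT; AP003392.3 and ABALON are lower in S34F than in WT on average in both fractions.

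In the light fraction of Q157R 11 rows were higher and 49 lower than in WT, with 1.46% of all genes called higher and 5.94% lower. The members' share lower was close to that background. The all-gene median was -1.14 and that of the antisense rows -0.62, and the 2 Q157R libraries were small, the lesser with 38415 gene counts. Of all 679 tested rows 174 had no count in either light Q157R library, so an empty row was frequent at this depth. Of the 49 lower rows 30 had no count in either Q157R library. SNHG7 was 1 of them, with 119, 289 and 241 CPM in WT and at least 14.3-fold lower in Q157R (bound from 3 counts over both libraries, covering counting error only). HCG18 was at least 14.0-fold lower and AP001160.1 at least 17.9-fold lower by the same bound. All 30 had counts in the heavy Q157R fraction, whose libraries were larger, at 105863 and 385227 gene counts against 38415 and 135596. SLFNL1-AS1 was higher on average, at 37.5 and 1315 CPM in Q157R against 32.5, 46.9 and 42.1 CPM in WT; without the latter library its log2 difference was -0.24.

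In the heavy fraction 0 of 679 rows differed between S34F and WT, with 0.0878% of all genes called in edgeR; 33 rows were under 0.05 before adjustment, and DESeq2 gave 4 calls. Over all genes 282 of 6833 were under 0.05 before adjustment, and DESeq2 called 30 of 30734. With only the compared groups fitted, 10 rows were higher and 22 lower, among 567 tested. In the same fit 117 of 5167 genes were higher and 123 lower, so the added calls were not limited to antisense rows. The base before the AG of the covered splice site, which S34F is known to affect in binding, was looked at in rows that cover exactly 1 window. In the light fraction the median log2 difference between S34F and WT was -0.20 for 119 rows with C there and -0.15 for 53 with T, within quartiles of -0.94 to 0.62 and -0.99 to 0.69. For 8 rows with A it was -0.55. No separation by base was visible at this depth, and this was a description made after the data had been seen.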

How the data were processed

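The authors deposited raw read counts per gene in 3 tables (10 RNA-seq, 7 eCLIP and 17 freCLIP libraries), with no normalization. Tools in the submitters' processing notes, given without roles, include the aligners HISAT2 and STAR (versions 2.5.3a and 2.7.0f), the counter HTSeq, and cutadapt and SAMtools; the annotation and strand setting are not given in the sources used here. The 9 TimeLapse-seq samples were not analysed. Lines that name no gene did not enter library sizes or tests. Gene counts were 43.6% to 56.1% of RNA-seq reads, 1.22% to 1.89% of eCLIP and 0.856% to 1.91% of freCLIP reads. Counting bounds cover counting error only.

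IDs without version were matched to GENCODE 29 for type, strand, exons and transcript sequence. The main test was edgeR's (version 4.0.16, R 4.3.3), with TMM scaling, filterByExpr (minimum count 10), robust quasi-likelihood F test, 1 mean per group with all libraries of an assay fitted together, Benjamini-Hochberg over all genes at 0.05. Technical eCLIP libraries were summed into their biological replicate. Levels are TMM-scaled CPM. Of the 1554 rows 1542 passed the RNA filter, 862 the eCLIP filter and 679 the freCLIP filter. The labels do not say that replicates were separate cultures, so p-values may measure technical spread.

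Same-numbered RNA-seq libraries deviated together from their group means (r from 0.267 to 0.807 over all pairs of groups with 2 libraries), so the number was taken to pair them. This rests on 2 numbers and on the data, since the labels do not say what a number shares. In eCLIP (r = 0.070) and freCLIP the numbers did not pair.

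Alternatives were the replicate block, DESeq2 1.42.0, RLE scaling, no low-count filter, only the compared groups, and leaving out each replicate. The code was tested on simulated data. Named rows were, per comparison, called rows without overlap between groups (up to 6 with symbols and 2 clone-named each way, or the 6 lowest p), the 10 most abundant, the 8 highest in each CLIP set, the 6 highest and lowest pair shares, list members and CLIP calls. A few called rows outside this rule, and the rows of the splice site classes, were chosen after their values were seen. The rows and lists were chosen with earlier results of these data known. A pair and a splice site window that these rules would name are not reported here.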

Additional observations from a re-analysis of the deposited data

Results flagged for a closer look

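The S34F and Q157R lines differed from each other in RNA: 11 antisense rows were called in the direct test between them (edgeR). They were GATA2-AS1 and HCG2040054 beside 9 rows that were also called in S34F against WT. That was 0.713% of 1542 rows, where 119 of all 21300 genes were called, so the share was near that of all genes. This difference between 2 groups under the same induction is what singled it out.

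In the WT heavy freCLIP fraction AC009133.1 stood at 3733 CPM in replicate 2 and at 4306 to 4372 CPM in the other 3. That library lay far from the rest relative to the range of the group. Among the 11 groups of 4 examined in this way, chance alone would mark about 1 in 20.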

How the results depend on the processing

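In RNA, the counts of antisense rows called rested on the model, and the counts over all genes moved with them. Over all genes S34F against WT gave 356 calls of 21300, 4779 with the replicate block and 0 of 19099 with only the compared groups. Of 38670 genes DESeq2 called 1569 and the fit without a low-count filter 2410. For S34F against Q157R the all-gene calls were 119, 4261, 0, 1239 and 2135 in the same order. S34F against WT gave 18 rows, 248 with the replicate block, 54 with DESeq2, 127 without a low-count filter, 0 with only the compared groups and 0 to 0 without any 1 library; RLE scaling kept it within 1.5 times. S34F against Q157R gave 11, then 203 with the replicate block, 49, 116, 0 and 0 to 0 in the same order. Q157R against WT gave 0 and 1 without a filter, where 0 and 15 of all genes were called. Induced against uninduced WT gave 0, 5 without a filter and 1 with the block, where 0, 130 and 89 of all genes were called. In eCLIP the 0 calls became 1 without a filter, 2 with the block and 0 to 555 when leaving out a replicate. In the light fraction the 3 S34F calls became 14 with DESeq2, 1 without a filter, 1 with only the compared groups, 5 with the block and 1 to 8 when leaving out a replicate (1 without S34F replicate 2 or WT replicate 3, 8 without WT replicate 2). The 60 Q157R calls became 95 with DESeq2, 38 with RLE, 21 without a filter, 0 with only the compared groups, 29 with the block, and 22 to 125 when leaving out a replicate (125 without Q157R replicate 2, 22 without replicate 3). The 0 heavy fraction calls became 4 with DESeq2, 32 with only the compared groups and 5 with the block. Over all genes the 6 heavy fraction calls became 30, 240 and 17 in that order. The 21 light S34F calls over all genes became 109 with DESeq2, 11 without a filter, 4 with only the compared groups and 23 with the block. For light Q157R, 506 became 743, 263, 0 and 315 in that order. SLFNL1-AS1 reversed to -0.24 without Q157R replicate 3 and was 4.87 without replicate 2.

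The median log2 ratio of shares, 4.01, was 3.78 with opposite genes of any type, 4.51 with at least 50 counts, 0.074 without exon overlap, and 3.96 to 4.13 when leaving out a replicate. Where fewer groups or libraries entered, the fit had fewer residual degrees of freedom; a lone library is then assumed to vary like the other groups. The cause of the other changes was not tested.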
